A study of Mus musculus with 3 samples.

Results

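The genes described here are the D cyclins, the kinases they switch on and the inhibitors of those kinases: Ccnd1, Ccnd2, Ccnd3, Cdk4, Cdk6, Cdkn1b, Cdkn1c, Cdkn2a, Cdkn2b and Cdkn2c. Their probes were found as the non-control probes whose gene name on the array is 1 of these symbols, which gave 10 of 19861 named genes and 17 of 41174 probes. RNA came from mPTEC of the kidney of male mice aged 1 month, taken freshly isolated (day 0) or kept on culture dishes for 1 or 3 days, with mPTEC written as the labels give it. The medium was DMEM/F12 with insulin-transferrin-selenium, non-essential amino acids, 0.1 µM hydrocortisone, penicillin, streptomycin and 1% FBS. Each day had 1 Cy3-labelled sample on 1 Agilent array (n = 1 per day), with no genotype or compound differing between days. The number of mice behind a sample is not given in the sources used here. With 1 array per day no test was made, no difference has a replicate check, and every fold below compares 1 array with another.

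D cyclins are made in response to mitogens and bind Cdk4 or Cdk6, and the active pairs phosphorylate the Rb protein, which then lets go of the E2F factors that switch on genes of DNA synthesis. Ink4 inhibitors (Cdkn2a, Cdkn2b, Cdkn2c and Cdkn2d) bind Cdk4 and Cdk6 themselves, whereas Cip/Kip inhibitors (Cdkn1a, Cdkn1b and Cdkn1c) bind cyclin and kinase together. In the adult kidney most tubule cells rest outside the cell cycle, and they can re-enter it after injury or when placed in culture.

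The array reads each gene through short DNA probes, and 5 of the 17 are shown because they read genes with different courses over the days. They are written 5′ to 3′ in lower case, with positions on the mouse build mm9 as the array files give them. Ccnd2 was read at chr6:127098696-127098755 and chr6:127089187-127089246 on the minus strand, Cdk4 at chr10:126501967-126502026 on the plus strand, Cdkn1b at chr6:134871103-134871161 on the plus strand, and Cdk6 by a probe whose ends lie at chr5:3473220-3515504 on the plus strand. The Cdk6 probe has 60 bases but spans 42285 bases of the genome, so it crosses at least 1 splice junction. Each of the 5 probes has at least 1 reading frame without a stop codon.
Ccnd2, 127098696: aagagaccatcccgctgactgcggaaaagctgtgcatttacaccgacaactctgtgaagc
Ccnd2, 127089187: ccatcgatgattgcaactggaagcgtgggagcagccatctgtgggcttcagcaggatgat
Cdk4: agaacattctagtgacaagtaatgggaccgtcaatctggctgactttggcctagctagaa
Cdk6, junction: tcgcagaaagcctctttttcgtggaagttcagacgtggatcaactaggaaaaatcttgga
Cdkn1b: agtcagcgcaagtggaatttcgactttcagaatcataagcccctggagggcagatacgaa

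Promoters of 7 of the 10 genes were found in a RefSeq table of the build GRCm38.p6, covering 250 bases before to 50 after each start. The promoters of Cdk4, Cdk6 and Cdkn2b are shown because these genes were higher on day 1 and on day 3 than on day 0. Capitals mark matches on either strand to CACGTG, the E-box read by Myc and related factors, and to GGGCGG, the GC box read by Sp1. The Cdk4 promoter lies at chr10:127063285-127063584 on the plus strand, that of Cdk6 at chr5:3343643-3343942 on the plus strand and that of Cdkn2b at chr4:89310983-89311282 on the minus strand.
Cdk4: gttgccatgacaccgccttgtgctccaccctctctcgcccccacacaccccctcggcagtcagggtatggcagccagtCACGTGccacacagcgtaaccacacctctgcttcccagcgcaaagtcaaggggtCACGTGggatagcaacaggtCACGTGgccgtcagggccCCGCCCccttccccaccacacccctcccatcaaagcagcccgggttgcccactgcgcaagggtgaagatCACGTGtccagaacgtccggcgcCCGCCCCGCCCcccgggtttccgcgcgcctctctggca
Cdk6: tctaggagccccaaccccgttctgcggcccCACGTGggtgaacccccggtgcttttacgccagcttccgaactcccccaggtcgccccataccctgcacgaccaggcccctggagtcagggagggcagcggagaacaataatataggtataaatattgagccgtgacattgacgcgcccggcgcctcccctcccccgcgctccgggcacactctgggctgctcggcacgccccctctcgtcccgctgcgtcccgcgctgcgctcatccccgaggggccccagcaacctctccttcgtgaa
Cdkn2b: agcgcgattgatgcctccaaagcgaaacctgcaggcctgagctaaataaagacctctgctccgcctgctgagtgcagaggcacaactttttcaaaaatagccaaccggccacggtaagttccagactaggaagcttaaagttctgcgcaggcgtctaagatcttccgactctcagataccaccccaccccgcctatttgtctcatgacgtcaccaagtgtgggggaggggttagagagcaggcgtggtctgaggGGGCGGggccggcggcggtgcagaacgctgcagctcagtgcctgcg

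The Cdk4 window held 4 E-boxes and 3 GC boxes, the Cdk6 window 1 E-box and no GC box, and the Cdkn2b window 1 GC box and no E-box. At least 1 E-box was present in 7.15% of the 32851 promoters in the table, and at least 4 in 8 of them, or 0.0244%. Of the 10 promoters of these genes 3 held it, those of Cdk4, Cdk6 and Cdkn2c, and Cdkn2c was lower on day 1. GC boxes were present in 35.7% of all promoters and in 8 of the 10 promoters of these genes. The share of G and C in the windows of these genes ran from 57.7% to 77%, apart from 44% in a Cdkn2c window. Its median over all promoters was 52.7%, and its part in the GC box count was not tested. The AP-1 motif TGANTCA (7.81% of all promoters) and the E2F motifs TTTCGCGC (0.323%) and TTTGGCGC (0.514%) had no match in the 10 promoters, CCAAT (37.4%) matched in 4, and the Foxo motif GTAAACA (3.65%) in 1, that of Ccnd3. A match describes letters in the window and is no measure of binding. Promoters of Ccnd1, Ccnd2 and Cdkn1c were not analysed here.

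A signal is given as a multiple of the array's 75th percentile, which was 1184, 1509 and 1515 intensity units on days 0, 1 and 3, with 18611 to 18869 genes well above background. The SD among spots of 1 probe, in log2 units, had a median of 0.15, so that the log2 ratio of 2 arrays carries a spot error of 0.21 (1.15-fold). Probes aimed at the same gene disagreed by more. The SD of their log2 ratios had a median of 0.34 between days 0 and 1, of 0.47 between days 0 and 3, and of 0.27 between days 1 and 3. Neither spread covers the difference between cultures. Proximal tubule markers fit the label on day 0, with all 10 well above background and a summed signal of 863 times the 75th percentile, but the 8 markers of the loop of Henle and distal nephron summed to 398 there, so the fresh sample also held RNA of other segments. Both sums were far lower later, at 146 and 94.6 on day 1 and 14.1 and 17.3 on day 3. In RNA from a mixed sample, fewer cells of a type and less RNA per cell cannot be told apart.

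Of the D cyclins, Ccnd1 was higher at each later day, while Ccnd2 and Ccnd3 were lower on day 1 and back near their first level on day 3. Ccnd1, the D cyclin most closely tied to mitogen signalling in epithelial cells, was read by 1 probe at chr7:152116173-152116232 on the minus strand. Its signal was 7.87 on day 0, 16.8 on day 1 and 48.6 on day 3. The day 3 signal was thus 6.18-fold the day 0 signal and 2.89-fold that of day 1, and day 1 was 2.14-fold above day 0. This probe was printed 10 times on each array, which shows the measurement error of 1 array. The 10 spots lay between 7.37 and 8.83 on day 0 (median 7.82), between 15.0 and 19.3 on day 1 (median 16.1) and between 40.5 and 55.6 on day 3 (median 51.2). No spot of 1 day overlapped those of another. The day 1 ratio dropped under 2-fold when arrays were scaled to 12 reference genes (0.76) or quantile normalized (0.95).

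Ccnd2, a D cyclin also induced by growth signals in many tissues, was read by 3 probes. The brightest, at chr6:127079694-127079753, gave 1.59, 0.612 and 1.34 on days 0, 1 and 3. The 2 printed above gave 0.895, 0.363 and 1.36 at 127098696, and 1.17, 0.458 and 1.45 at 127089187. All 3 were lowest on day 1, by 2.59-fold against day 0 for the brightest, with log2 ratios of -1.37, -1.30 and -1.36. From day 1 to day 3 all 3 were higher again, by 1.13, 1.90 and 1.66 on the log2 scale. They differed in sign for day 3 against day 0, at -0.25, 0.60 and 0.31, so the order of these 2 days is not given for Ccnd2.

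Ccnd3, the D cyclin most often found in resting and differentiated cells, had 1 probe at chr17:47736267-47736326 on the plus strand. Its signal was 2.74 on day 0, 1.44 on day 1 and 2.60 on day 3. Day 1 was 1.91-fold below day 0 and day 3 was 1.80-fold above day 1, while days 0 and 3 differed by -0.08 on the log2 scale, less than the spread between spots. The sign of that last ratio changed with the scaling, from -0.44 with reference genes to 0.29 with spike-in controls.

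**Figure D1:**
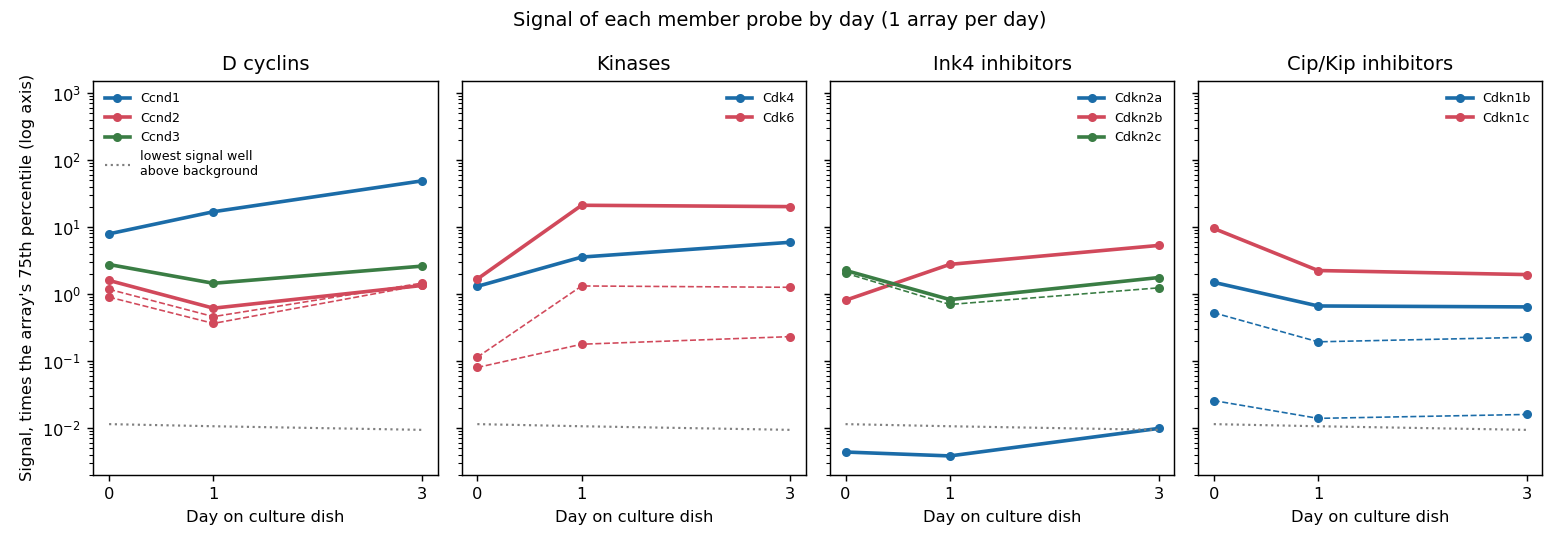
Signal of every probe of the 10 genes (vertical axis, multiples of the array's 75th percentile, log scale) against days on the dish, with solid lines for the brightest probe of a gene, dashed lines for its other probes and a dotted line for the lowest signal well above background. Ccnd1 climbs from 7.87 to 48.6, Cdk6 jumps to 21.0 by day 1, and Cdkn1c drops from 9.48 to 2.23.

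Both kinases were higher in culture. Cdk4, which pairs with all D cyclins, had 1 probe, printed above, with a signal of 1.29 on day 0, 3.54 on day 1 and 5.89 on day 3. It was 2.74-fold above day 0 on day 1 and 4.55-fold on day 3, and day 3 exceeded day 1 by 1.66-fold. The day 3 ratio of 2.19 on the log2 scale fell below 4-fold with reference genes (1.82) and marginally below it with the normexp background.

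Cdk6, the partner kinase of Cdk4, gave the largest ratios of the 10 genes on both culture days. Its brightest probe, at chr5:3529287-3529346 on the plus strand, gave 1.67 on day 0, 21.0 on day 1 and 20.1 on day 3. That was 12.6-fold above day 0 on day 1, and on day 3 the log2 ratio was 3.59. The 2 culture days differed by -0.07 on the log2 scale, within the spread between spots. The junction probe printed above gave 0.114, 1.31 and 1.25, with log2 ratios of 3.53 and 3.46 against day 0. The last probe, at chr5:3521669-3521728, gave 0.0798, 0.178 and 0.230, and smaller log2 ratios of 1.15 and 1.53. All 3 Cdk6 probes were higher on both culture days, but they spread over more than the typical probes of a gene. The mean of the 3 probes gave 2.78 and 2.86.

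The Ink4 inhibitors did not share 1 course. Cdkn2b (p15), which responds to TGF-beta in epithelial cells, had 1 probe at chr4:88952437-88952496 on the minus strand. Its signal was 0.804 on day 0, 2.76 on day 1 and 5.29 on day 3, or 3.43-fold and 6.58-fold above day 0. It was therefore higher at each later day, as Ccnd1 and Cdk4 were.

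Cdkn2c (p18), an Ink4 inhibitor made in many tissues, was read by 2 overlapping probes at chr4:109333779-109333838 and chr4:109333757-109333818 on the minus strand. The brighter gave 2.24 on day 0, 0.823 on day 1 and 1.75 on day 3, and the other 2.04, 0.695 and 1.23. Both were lowest on day 1, by 2.72-fold against day 0 for the brighter, and higher again on day 3, by 2.13-fold against day 1. Since the probes share most of their bases they are not separate readings of the gene. Day 3 stood at -0.35 and -0.73 against day 0 on the log2 scale, and spike-in scaling moved the brighter to 0.01.

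Cdkn2a encodes p16Ink4a and, through another first exon, Arf, and is known for accumulating in cells kept long in culture. Its probe, at chr4:88920545-88920604 on the minus strand, was not assigned to either product here. It gave 0.00437 on day 0, 0.00382 on day 1 and 0.00983 on day 3. None of its 10 spots was well above background on day 0 or day 1, and 7 of 10 were on day 3. The spots ranged from 0.00251 to 0.00699 on day 0, from 0.00265 to 0.00812 on day 1 and from 0.00540 to 0.0136 on day 3, so the days overlapped. The day 3 signal was below 1.14% of the 75th percentile, the lowest signal well above background on the day 0 array, so no fold is given and Cdkn2a is outside the counts below.

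**Figure D2:**
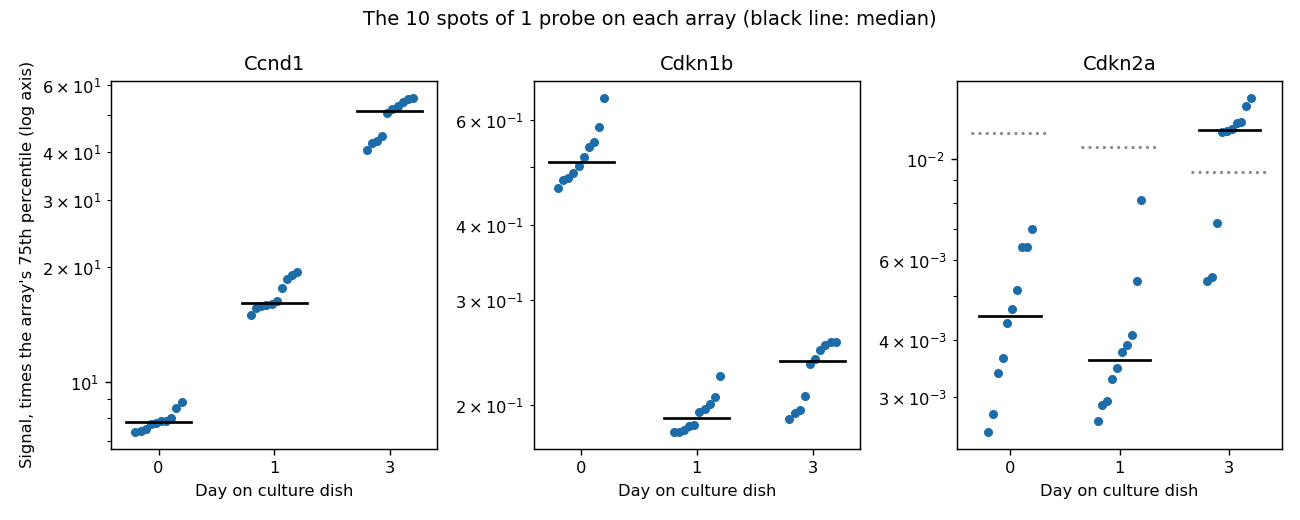
The 10 spots of a probe on each array for Ccnd1, Cdkn1b and Cdkn2a (vertical axis, multiples of the 75th percentile, log scale; horizontal axis, day; black line, median; dotted line, lowest signal well above background, drawn for Cdkn2a). Ccnd1 spots are separate on all days, Cdkn1b spots on day 0 lie above those of both later days, and Cdkn2a spots overlap near background.

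Both Cip/Kip members were lower in culture and stayed low. Cdkn1b (p27), a brake that is abundant in resting cells, was read by 3 probes. The brightest, at chr6:134875215-134875274, gave 1.49 on day 0, 0.660 on day 1 and 0.640 on day 3, which was 2.25-fold and 2.33-fold below day 0. The probe printed above, with 10 spots, gave 0.523, 0.193 and 0.225, and its day 0 spots (0.462 to 0.654) did not overlap those of day 1 (0.180 to 0.224) or day 3 (0.190 to 0.255). The dimmest, at chr6:134873606-134873665, gave 0.0256, 0.0139 and 0.0159. Its values on the culture days lay near the lowest signal well above background, which was 0.0114, 0.0106 and 0.00936 on days 0, 1 and 3. All 3 Cdkn1b probes were thus lower on both culture days, with log2 ratios between -1.44 and -0.88 on day 1 and between -1.22 and -0.69 on day 3. The brightest was less than 2-fold lower on day 1 with median centring (-0.96), and on day 3 with median centring (-0.91) and spike-in scaling (-0.85).

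Cdkn1c (p57), which in the adult kidney is known as a podocyte protein, had 1 probe at chr7:150644753-150644812 on the minus strand. Its signal was 9.48 on day 0, 2.23 on day 1 and 1.94 on day 3. It fell 4.25-fold by day 1 and stood 4.88-fold below day 0 on day 3, and the 2 culture days differed by -0.20 on the log2 scale, within the spread between spots. The 5 podocyte markers summed to 9.02 on day 0, 1.82 on day 1 and 2.35 on day 3, all well above background on each array. On day 1, 4 of the 5 were at least 4-fold lower, and on day 3, 2 of the 5. Nphs1 (nephrin) stood at -3.63 and -3.57 on the log2 scale. Their part in the Cdkn1c result was not tested. The 4-fold difference was kept in 6 of 8 processing alternatives on day 1 and in 4 of 8 on day 3, where the smallest size was -1.91 with the normexp background.

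Markers of other cells moved beside the genes that were higher. The 4 mesothelial markers summed to 0.107, 0.495 and 17.8 on days 0, 1 and 3, of which Msln (mesothelin) gave 0.0470, 0.431 and 17.4. The 6 macrophage and leukocyte markers summed to 1.94, 3.24 and 2.08, the 5 fibroblast and pericyte markers to 3.22, 3.72 and 2.93, and the 5 endothelial markers to 21.3, 11.2 and 4.16. Single markers moved apart within these sums. Cd68, a lysosomal protein of macrophages that other cells also make, was 12.2-fold higher on day 1, while the leukocyte markers Ptprc and Cd3e stood at -1.49 and -1.06 on the log2 scale. Csf1r, Adgre1 and Cd79a of the same list stood at -0.02, 0.12 and -0.03 on day 1 by their brightest probes. The collagen genes Col1a1 and Col3a1 were 7.12-fold and 3.05-fold higher on day 3 by their brightest probes. Another probe of each gave -0.21 and 0.19 on the log2 scale. The pericyte marker Pdgfrb, the largest part of its sum, stood at -0.88 on day 3. All of these markers were well above background on all 3 arrays. Their part in the values of Ccnd1, Cdk4, Cdk6 and Cdkn2b was not tested.

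Counts of these genes past a fold are set against those of all genes. Of the 9 with a ratio, 1 (Cdk6) was at least 4-fold higher on day 1 than on day 0 and 1 (Cdkn1c) at least 4-fold lower, where 3.37% and 5.15% of 18904 genes were, or 8.52% in either direction. At 2-fold, 4 were higher (Cdk6, Cdkn2b, Cdk4 and Ccnd1) and 4 lower (Cdkn1c, Cdkn2c, Ccnd2 and Cdkn1b), where 13.5% and 15.3% of all genes were, or 28.8% in either direction. Their median log2 ratio was -0.93, with -0.11 for all genes.

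On day 3 against day 0, 4 of the 9 (Cdk6, Cdkn2b, Ccnd1 and Cdk4) were at least 4-fold higher and 1 (Cdkn1c) at least 4-fold lower, against 5.32% and 7.81% of 19101 genes, or 13.1% in either direction. At 2-fold the same 4 were higher, and Cdkn1c and Cdkn1b lower, against 16.5% and 21.4% of all genes, or 37.9% in either direction. The medians were -0.08 for the 9 and -0.10 for all genes. On day 3 against day 1 none of the 9 was 4-fold different, where 1.62% of 19000 genes were higher and 1.27% lower, or 2.88% in either direction. At 2-fold 3 were higher (Ccnd1, Ccnd2 and Cdkn2c) and none lower, against 6.96% and 8.06%, or 15.0% in either direction, with a median of 0.85 for the 9 and -0.04 for all genes.

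Ranked by ratio, Cdk6 was 99 of 18904 genes from the top on day 1 and 294 of 19101 on day 3. Cdkn2b stood at percentile 95.5 and 97.2 on these days, Cdk4 at 92.7 and 95.6, and Ccnd1 at 88.1 and 97.0. Cdkn1c lay at percentile 4.71 and 5.85.

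**Figure D3:**
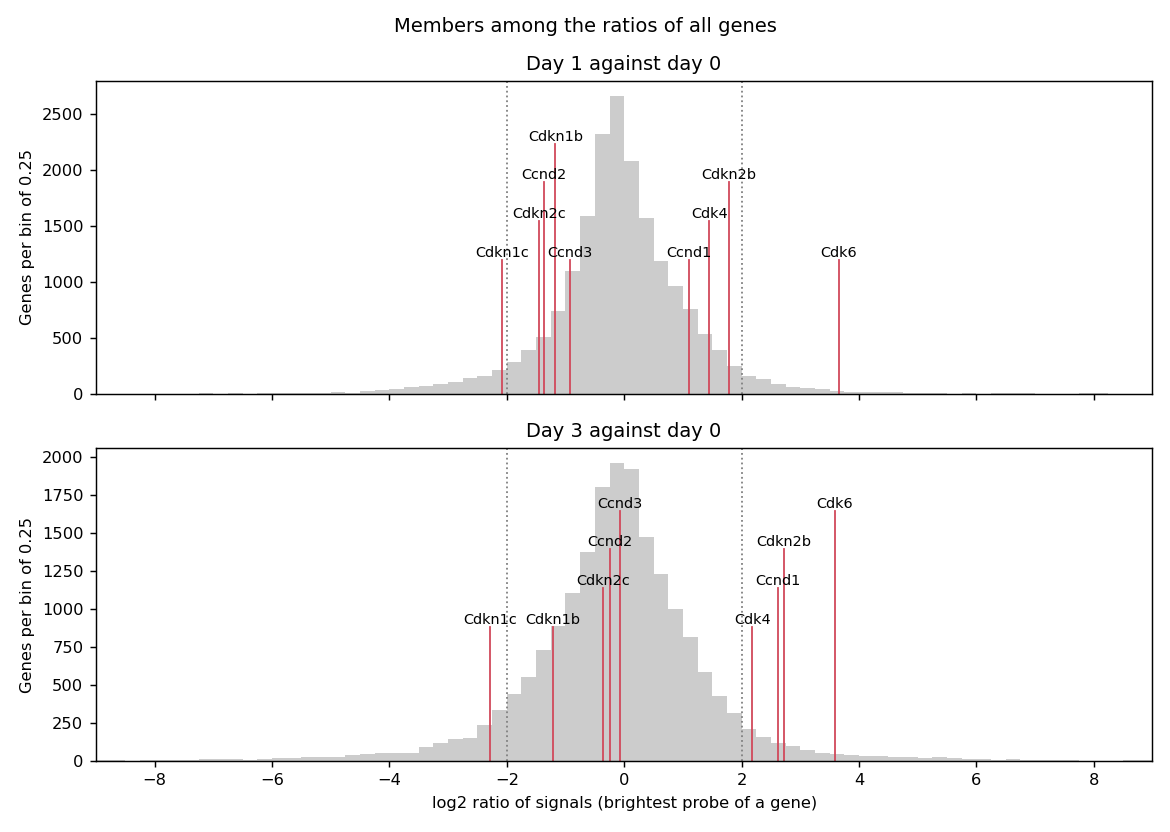
Number of genes per bin of 0.25 in log2 ratio (grey) for day 1 and day 3 against day 0, with the ratios of the 9 genes above background as red lines and 4-fold differences as dotted lines. On day 1 the 9 lie on both sides of 0 with Cdk6 alone beyond 3, and on day 3 Ccnd2, Ccnd3 and Cdkn2c sit near 0 while Ccnd1, Cdk4, Cdk6 and Cdkn2b lie beyond 2.

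Seen by step, the genes formed 4 courses, read from the values and given as a description. Ccnd1, Cdk4 and Cdkn2b were higher at both steps, Cdk6 was higher by day 1 with no further difference, Ccnd2, Ccnd3 and Cdkn2c dipped on day 1, and Cdkn1b and Cdkn1c were low on both culture days.

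**Figure D4:**
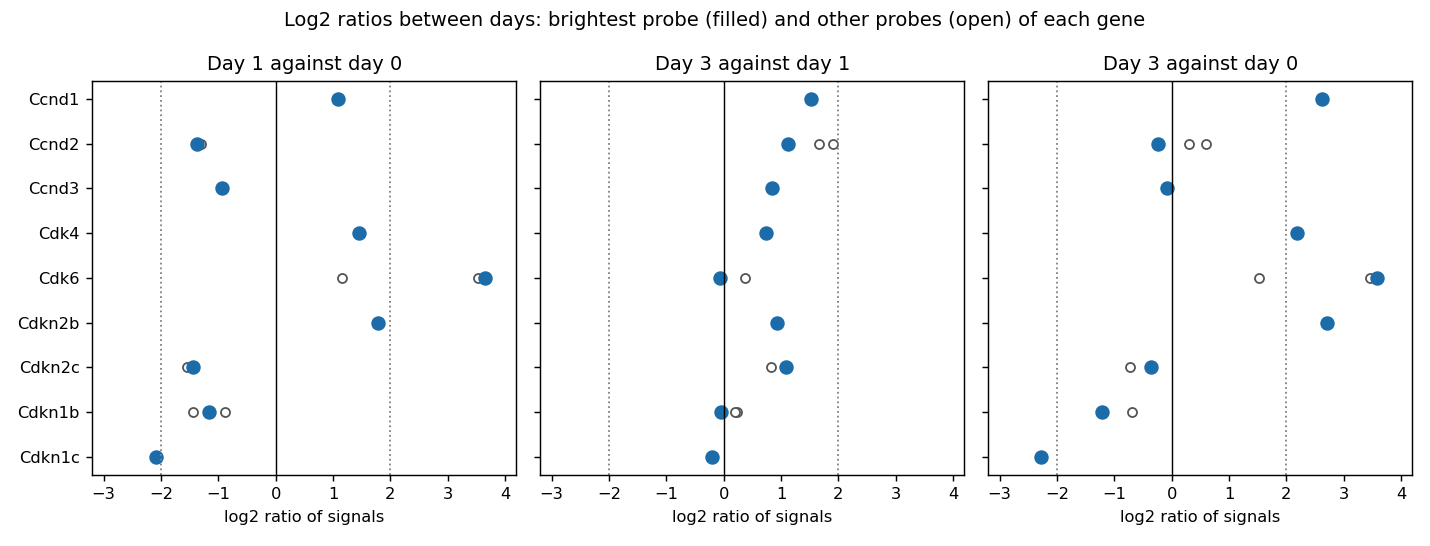
Log2 ratio of each gene for day 1 against day 0, day 3 against day 1 and day 3 against day 0, with filled points for the brightest probe, open points for other probes and dotted lines at 4-fold. The 3 probes of Cdk6 lie at 3.66, 3.53 and 1.15 for day 1 against day 0, and those of Ccnd2 fall on both sides of 0 for day 3 against day 0.

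The genes whose ratios on days 1 and 3 lay nearest, by Euclidean distance in log2 units among 17247 genes over these 3 arrays, are named as a description. H2ax (0.05) was nearest to Ccnd1, Itga1 (0.02) to Ccnd2, Cmtm7 (0.02) to Cdk4, and Eif4ebp1 (0.11) to Cdk6. For the inhibitors they were Bex1 (0.04) for Cdkn2b, Avpr2 (0.04) for Cdkn2c, Cyp2c39 (0.01) for Cdkn1b and Mccc2 (0.02) for Cdkn1c. The next were Noxo1 and Mboat1, Slc35g1 and Plcl2, Tmem248 and Spred3, Rin1 and Nrcam, Ccn2 and Parva, Pmaip1 and Sgip1, Chd4 and Abhd14a, and Clic5 and Srd5a2, in the same order of genes. Cdk6 had the most distant neighbours of the 8.

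The rest of the pathway was followed in 8 lists with 91 genes, all measured. Of these, 16 were at least 4-fold higher and 4 lower on day 1 (median log2 ratio 0.69), and 29 and 4 on day 3 (median 1.21). From day 1 to day 3, 9 were at least 4-fold higher and none lower (median 0.26). The shares over all genes are those given above, and the lists were chosen with earlier results of these data known.

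Both other Cdk inhibitors moved, in different ways. Cdkn1a (p21), which is induced by Trp53 and by stress, gave 0.847 on day 0, 9.53 on day 1 and 7.92 on day 3. It was 11.3-fold above day 0 on day 1 and 9.36-fold on day 3, the opposite direction to its relatives Cdkn1b and Cdkn1c. Cdkn2d (p19), the remaining Ink4 inhibitor, gave 2.80, 0.650 and 2.46, a 4.31-fold drop by day 1 and a 3.79-fold gain from there to day 3. It dipped on day 1, as Cdkn2c did. The dip was under 4-fold with median centring (-1.90), spike-in controls (-1.94) and the normexp background (-1.98).

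The targets downstream of the kinases were higher in most cases. Of 16 E2F target genes, which serve DNA replication, 8 were at least 4-fold higher on day 1 (median 2.02) and 15 on day 3 (median 3.48), and none was 4-fold lower. With the mean of probes these counts of higher genes became 7 and 12, and with reference genes 7 and 14. Median centring and spike-in controls gave 9 on day 1. On day 3 quantile normalization, normexp and the background-subtracted signal without detrending gave 14. The replication licensing genes Mcm3 and Cdc6 stood at 4.17 and 3.62 on the log2 scale on day 1, and at 5.48 and 5.46 on day 3. Rrm2, which makes DNA building blocks, stood at 2.49 and 5.35, and Tk1 at 0.39 and 3.49. Tyms stood at 0.31 and 2.04 by its brightest probe, while another of its probes gave -0.27 and -0.69. With the normexp background, whose offset of 50 intensity units makes ratios of dim signals smaller, Cdc6 stood at 2.25 and 3.86.

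Of the 18 genes of the Rb family, the E2F factors and their partners, 2 were at least 4-fold higher and 2 lower on day 1 (median 0.64), and 5 and 2 on day 3 (median 1.41). The 2 higher on day 1 were E2f8 and E2f4. E2f4 stood at 2.06 on day 1 and 1.74 on day 3, and on day 1 at 1.77 with normexp and 1.72 with reference genes. E2f7 and E2f8, repressor members of the E2F family that are themselves E2F targets, stood at 1.72 and 2.02 on day 1 and at 4.76 and 4.68 on day 3. Mybl2 stood at 1.66 and 4.46 and E2f1, an activator, at 1.36 and 3.72, with 0.71 and 2.18 by its other probe. With the normexp background E2f8 stood at 0.86 and 3.38 and E2f7 on day 3 at 3.82, and the mean of its probes put E2f7 at 0.75 and 2.62. The count of 2 higher genes on day 1 became 0 with normexp and with reference genes, and on day 3 the 5 became 8 with median centring and spike-in controls. On the lower side, Rbl2 (p130), the Rb relative that predominates in resting cells, stood at -2.07 and -2.75, and its partner Lin52 at -1.42 and -2.14. The count of 2 lower genes became 1 in 4 of 8 alternatives on day 1 and in 5 of 8 on day 3, and with normexp Rbl2 stood at -1.88 and Lin52 at -1.54 on those days. Tfdp2 stood at -2.22 and -1.79 by its brightest probe and at -0.67 and -0.21 by another. Rb1 itself was under 2-fold lower, at -0.68 and -0.40.

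Of the 8 later cyclins, kinases and activators, 2 were at least 4-fold higher on day 1 (median 1.07) and 3 on day 3 (median 1.21), with none lower. Ccne1 (cyclin E1) stood at 2.91 and 4.56 by its brightest probe and at 0.73 and 1.96 by the other, and Ccne2 at 2.37 and 3.38. The count on day 1 became 1 with the mean of probes, which put Ccne1 at 1.82, and with normexp, which put Ccne2 at 1.72. Ccna2 (cyclin A2), which acts in S phase, was 2.01-fold above day 0 on day 1 and 39.3-fold on day 3. Their kinase Cdk2 was under 2-fold different by its brightest probe, at 0.51 and 0.52, but stood at 1.58 and 2.07 by its other.

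**Figure D5:**
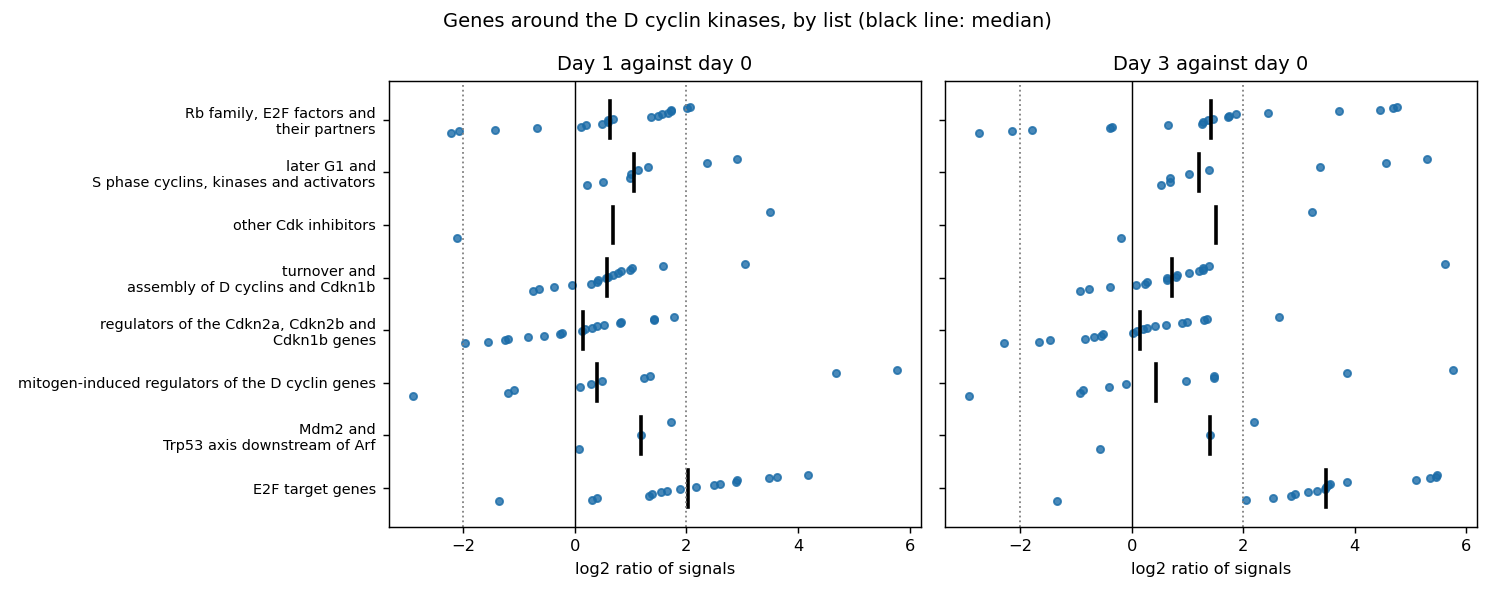
Log2 ratio of each of 91 genes in 8 lists for day 1 and day 3 against day 0 (1 point per gene, black line for the list's median, dotted lines at 4-fold). The E2F targets have the highest medians among lists of over 3 genes, at 2.02 and 3.48, and the lists of regulators and of mitogen-induced genes lie around 0 with members far to both sides.

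Of 16 genes for the assembly and breakdown of D cyclins and Cdkn1b, 1 was at least 4-fold higher on each culture day and none lower (medians 0.57 and 0.72). That gene was Cks1b, a cofactor for the breakdown of Cdkn1b, with a signal of 0.555, 4.59 and 27.3 on days 0, 1 and 3, or 8.27-fold and 49.2-fold above day 0. Skp2, the ligase subunit it works with, stood at 0.29 on day 1 and 1.39 on day 3.

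Of 18 regulators of the Cdkn2a, Cdkn2b and Cdkn1b genes, none was 4-fold different on day 1, and 1 was higher and 1 lower on day 3 (medians 0.15 and 0.15). Ezh2, a Polycomb enzyme that silences Cdkn2a, stood at 1.42 and 2.64, and Tbx3, a repressor of the same locus, at -1.19 and -2.30 by its brightest probe and at -1.05 and -1.18 by its other. Tbx3 on day 3 was under 4-fold lower with median centring (-1.99), spike-in controls (-1.93) and the mean of probes (-1.74). The Polycomb proteins Cbx7 and Bmi1 stood at -1.97 and 0.18 on day 1 and at -1.66 and -0.54 on day 3.

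Of 10 mitogen-induced regulators of D cyclin genes, 2 were at least 4-fold higher and 1 lower on both culture days (medians 0.39 and 0.43). Fosl1, an AP-1 subunit, was 25.7-fold above day 0 on day 1 and 14.5-fold on day 3, and Jun, another subunit, was 7.49-fold and 7.57-fold lower. Areg (amphiregulin), a ligand of the EGF receptor, had a day 0 spot that was not well above background, and its later signals were at least 54.6-fold (day 1) and 54.5-fold (day 3) higher than it. With the normexp background these became 10.2-fold and 14.4-fold. Myc stood at 1.34 and 0.97. Downstream of Arf, 1 of 3 genes was at least 4-fold higher on day 3 and none on day 1 (medians 1.18 and 1.39). That gene, Trp53, stood at 2.20 by its brightest probe and at -0.52 by its other, and was under 4-fold higher with reference genes (1.84) and the mean of probes (0.84). Mdm2, which breaks Trp53 down, stood at 1.39.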

How the data were processed

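Each of the 3 arrays (1 per day) gave 45018 spots, 1639 of them controls. Per the file headers, Feature Extraction 10.5.1.1 measured the spots, and the submitters' processing notes name 9.1. The deposited processed signal is an intensity, background subtracted and not normalized between arrays. Its multiplicative trend correction was fitted on the day 0 and day 1 arrays but not on day 3, per the file headers. The deposited quality flags, of other kind, mark spots well above background, outliers (94, 102 and 85 spots, left out) and saturated spots (0). The authors' deposited value table is a ratio, the processed signal over the array's 75th percentile, with all 43379 values per array within 0.001 and column medians of 0.187, 0.162 and 0.151.

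Here log2 processed signal minus the 75th percentile was averaged over the spots of a probe, with no test. Python 3.11.15, numpy 2.4.6 and pandas 2.3.3 were used, also for quantile normalization, and R 4.3.3 with limma 3.58.1 for normexp. The normexp background added an offset of 50 intensity units, which makes ratios of dim signals smaller. The scripts were tested on simulated data. Probes were named through RefSeq by accession (26866), symbol (5029) or synonym (831), and 8431 had no name. The brightest probe stood for a gene, and a ratio was taken where either array showed the gene well above background. Where 1 side was not well above background, the ratio is a bound against the lowest such signal (1.14%, 1.06% and 0.936% of the 75th percentile on days 0, 1 and 3) or the probe's own signal where that was higher. Genes were counted from 4-fold, a log2 ratio of 2, with 2-fold as an alternative. Promoter sequences are from RefSeq, GRCm38.p6.

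Named are all 10 genes, at most 4 genes per list and direction past 4-fold, list members under 2-fold as examples, and the 3 nearest patterns of each gene that was 2-fold different. Skp2, Myc, Mdm2, Cbx7, Tyms, E2f4 and other probes of a gene were named after their values were seen. Values of the listed genes that are not named, some of them past 4-fold, are left out of the text. Members and lists were chosen with earlier results of these data known.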

Additional observations from a re-analysis of the deposited data

How the results depend on the processing

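For the 9 genes with a ratio, 8 alternatives gave 216 ratios. Of these, 202 moved by less than the spread, 14 moved by more and 0 were counted as reversed. Of 2184 ratios of the listed pathway genes the counts were 1960, 223 and 1. The last was Mnat1, day 3 against day 0, at 1.39 by its brightest probe and -0.0169 by the mean of its probes. Not every change of sign was counted as reversed. The sign changed under at least 1 alternative for Ccnd2, Ccnd3 and Cdkn2c on day 3 against day 0. It also changed for Cdk6, Cdkn1b and Cdkn1c on day 3 against day 1. These ratios were all under 2-fold. Among the pathway genes, E2f2 on day 1 went from 0.20 to -0.14 with reference genes. Median centring, reference genes and spike-in scaling move every ratio of a comparison by the same amount, so the ratios counted above are not separate checks. With reference genes on day 1 against day 0 all 9 genes moved together. On day 3 against day 0 these common shifts stayed below the 0.47 median SD between probes of a gene. Scaling moved the median of all genes on days 1 and 3 against day 0 by 0.21 and 0.30 (median centring), 0.12 and 0.17 (quantile), -0.34 and -0.37 (reference genes) and 0.17 and 0.36 (spike-in controls). Of genes 4-fold different, the share that was higher, from 638 against 973 on day 1 and 1017 against 1491 on day 3, became 51.7% and 56.3%, 40.7% and 45.7%, 24.3% and 25.2%, and 49.1% and 59.5% in that order. The 1 gene of the 9 at least 4-fold lower became 0 with median centring and spike-in controls on both days, and on day 3 also with normexp and with the background-subtracted signal without detrending. At 2-fold the 9 gave 4 higher and 4 lower on day 1, 2 lower on day 3, and 3 higher on day 3 against day 1. The 4 pathway genes lower became 2 on day 1 with median centring, spike-in controls and normexp, and 2 on day 3 with median centring, spike-in controls and the mean of probes. At 2-fold the pathway lists gave 39 higher and 12 lower on day 1, 48 and 8 on day 3, and 24 and 1 on day 3 against day 1. The cause of these differences was not tested. No paired analysis was possible because each day has 1 array. Signal over background limits Cdkn2a, which has no ratio.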
